A study of Danio rerio with 4 samples.

Results

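The solute carrier (Slc) genes are membrane transporters that move amino acids, sugars, ions, metals, nucleosides, and metabolites across the plasma membrane or the membranes of organelles, mostly as exchangers or by coupling to the sodium or proton gradient. They were selected here by symbol, as rows of the 6 deposited lists whose gene symbol in lower case begins with slc, a family number, and a letter. This gave 45 genes of 2543 genes in any list. The lists come from RNA-seq of the total RNA of whole retina of wild-type zebrafish aged 10 months, with 1 library each of uninjured retina, retina at 12 hr post-injury (12 hpi), retina at 4 days post-injury (4 dpi), and retina at 4 dpi of fish kept in 10 μM cyclopamine, an inhibitor of Smoothened in the Shh pathway, after injury. The injury was a needle poke, after which Müller glia (MG) of the zebrafish retina form proliferating progenitors. All fish other than the cyclopamine-treated ones had no agent, and the number of retinas per library is not given in the sources used here.

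In the retina, carriers do some of the most specialized work of the tissue. Photoreceptors and bipolar cells load glutamate into synaptic vesicles and clear it again from the synapse, rod and cone outer segments extrude calcium with sodium/calcium-potassium exchangers, mature neurons keep chloride low with potassium-chloride cotransporters, and glia and photoreceptors trade lactate, bicarbonate, and amino acids. Proliferating cells in many tissues take up more amino acids and nucleosides.

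Each condition had 1 library, so replicate error is unknown for every difference below, and p-values were not computed. A gene is called listed as higher or lower where the authors placed it in the list of that direction against uninjured retina. That call compares 1 library with 1 library and holds no spread between retinas. All 3 comparisons use the same uninjured library, so a low or high uninjured value enters each of them. Levels are FPKM (fragments per kilobase of feature, scaled to the mapped fragments of each library), per transcript at 12 hpi and per gene at 4 dpi, and the read depth behind them is unknown. A gene outside the lists has no value here, so its absence from a list does not show that its level stayed the same. Ratios are log2((later FPKM + 0.1)/(uninjured FPKM + 0.1)). In bulk retina, fewer cells of a type and less RNA per cell cannot be told apart.

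Of the 45 carriers, 29 had FPKM values at 12 hpi or 4 dpi, and the other 16 were in the cyclopamine lists alone, which hold identifiers without values. The lists of 12 hpi held 13 carriers, 6 higher and 7 lower. Those of 4 dpi held 18, with 8 higher and 10 lower, and those of cyclopamine held 27, with 6 higher and 21 lower. The share of listed carriers that were in the higher list was thus 46.2% at 12 hpi, 44.4% at 4 dpi, and 22.2% with cyclopamine, beside 63.8%, 60.9%, and 47.1% of all listed genes. No carrier was among the 12 genes that the cyclopamine lists hold in both directions. Set against the annotation in place of the lists, 23 of 433 annotated carrier genes (5.31%) were in the lower list with cyclopamine, beside 2.26% of 29201 annotated genes. For the lower lists at 12 hpi and 4 dpi these shares were 1.62% beside 0.712% and 2.54% beside 1.78%. For the higher lists they were 1.39% beside 1.16% at 12 hpi, 2.08% beside 2.76% at 4 dpi, and 1.39% beside 2.04% with cyclopamine. Annotated genes include those the retina does not express, and these shares carry no test.

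**Figure D1:**
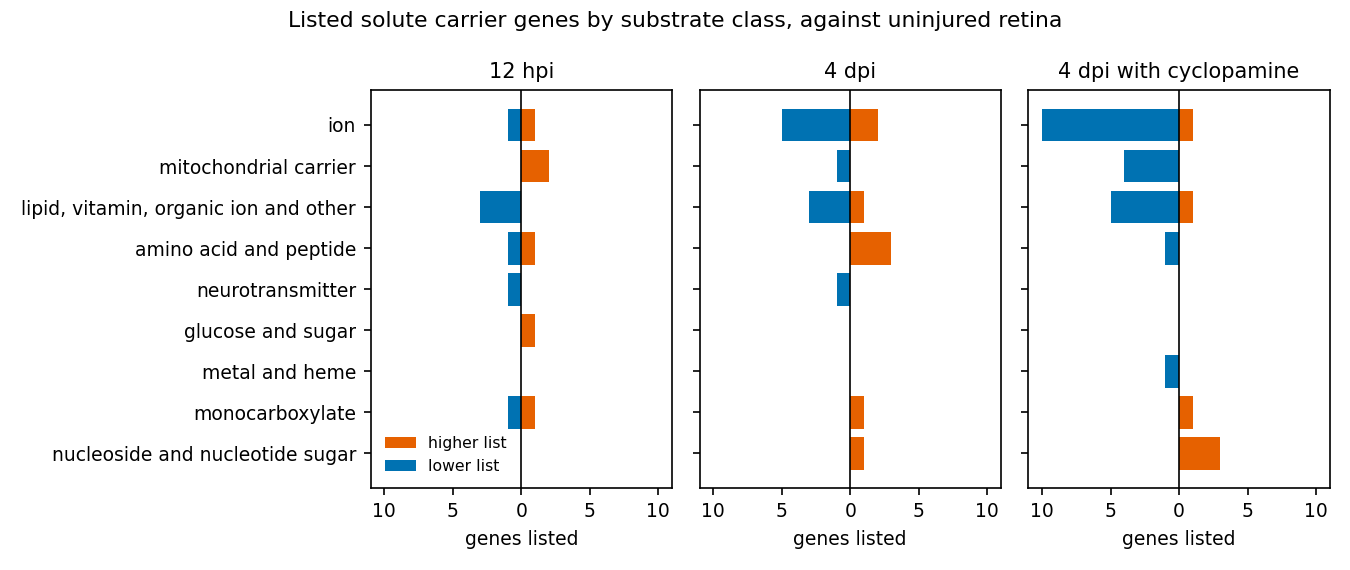
Number of listed carrier genes (horizontal axis, genes) in each of 9 substrate classes (vertical axis) at each injured condition (12 hpi, 4 dpi, and cyclopamine-treated 4 dpi), with the higher list to the right and the lower list to the left of 0. Ion carriers, 81 of the 433 annotated carrier genes, make up 5 of the 10 lower and 2 of the 8 higher genes at 4 dpi. With cyclopamine they make up 10 of the 21 lower and 1 of the 6 higher genes. The 3 amino acid carriers at 4 dpi are all in the higher list.

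At 4 dpi the higher list held carriers of amino acids, nucleosides, nucleobases, and bicarbonate, and a gene of the monocarboxylate carrier family. MG-derived progenitors proliferate at this time, and a link of these carriers to proliferation was not tested. The lower list held carriers of calcium, chloride, glutamate, creatine, vitamin C, and pyrimidine nucleotides, and an orphan carrier. Bicarbonate was on both sides, as *slc4a4a* was in the lower list. Most of these substrates were represented by 1 gene each. The higher carriers were at 0 to 4.17 FPKM in uninjured retina, and the lower carriers at 13.9 to 142.8 FPKM. The uninjured level entered the comparison that placed each gene in a list, so this separation is no separate result about carriers. The median uninjured level of all genes was 2.19 FPKM in the higher list and 24.4 FPKM in the lower list. Summed over genes, the 10 lower carriers measured 524.3 FPKM without injury and 154.9 FPKM at 4 dpi, and the 8 higher carriers had 14.1 and 71.4 FPKM. The median log2 ratio was 2.02 for the 7 higher carriers above 0 in both libraries, beside 2.52 for all genes of that list, and -1.79 for the 10 lower carriers, beside -1.92. At least a 4-fold difference was seen in 4 of the 7 higher carriers, beside 77.6% of all such genes of the higher list, and in 4 of the 10 lower carriers, beside 42.8%.

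**Figure D2:**
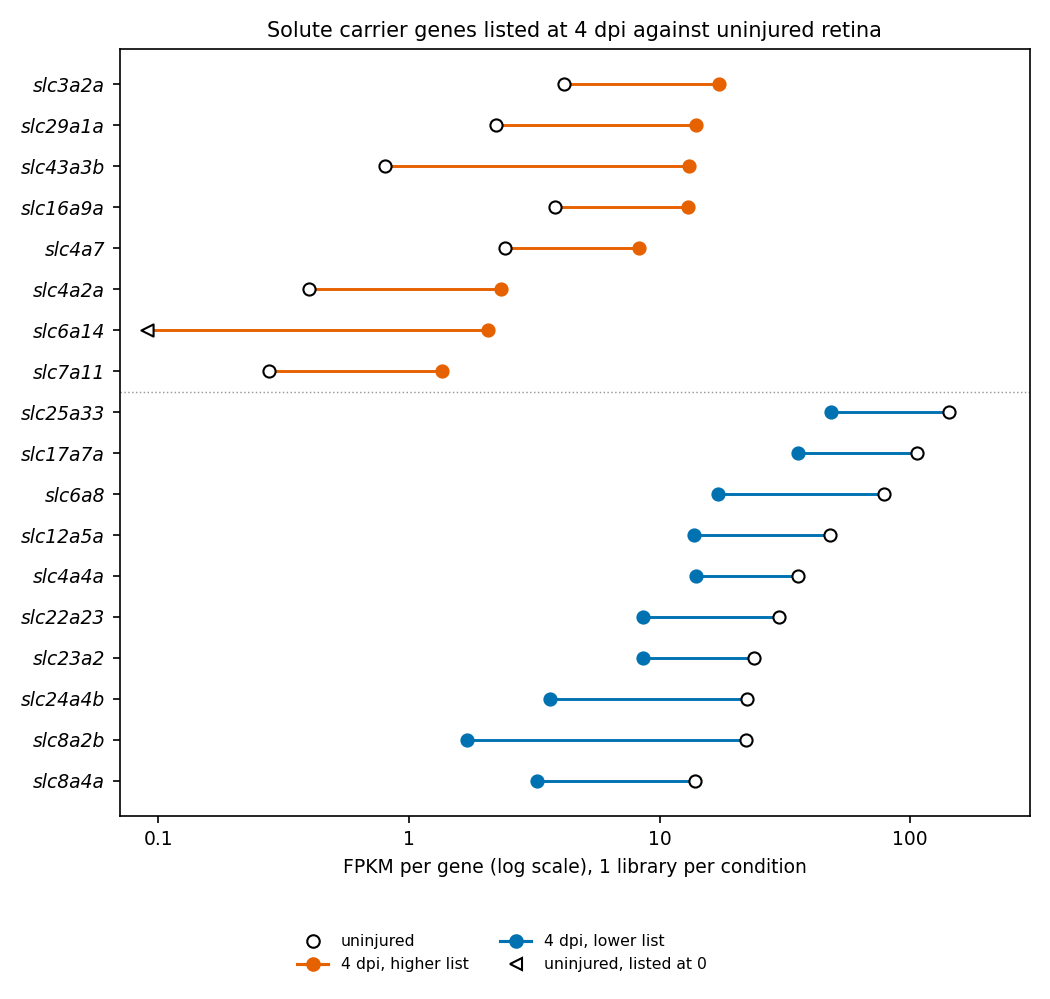
FPKM per gene (log axis) of the 18 carriers listed at 4 dpi, with uninjured retina as open circles and 4 dpi as filled circles, 1 library each and therefore no error bars. *slc6a14*, listed at 0 in uninjured retina, is drawn as a triangle at the left edge. Uninjured values of the higher carriers lie at or below 4.17 FPKM and those of the lower carriers at or above 13.9 FPKM. These values also entered the comparison that placed each gene in a list.

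All 3 amino acid carriers listed at 4 dpi were in the higher list, which held 60.9% of all genes listed at that time. *slc3a2a* encodes the heavy chain that brings several Slc7 light chains to the plasma membrane. It measured 4.17 FPKM without injury and 17.3 FPKM at 4 dpi, for a log2 ratio of 2.02. *slc7a11*, which encodes the light chain of the cystine/glutamate exchanger and pairs with that heavy chain, had 0.276 and 1.36 FPKM, a log2 ratio of 1.96. *slc7a11* was also listed as higher at 12 hpi, where its listed transcript had 0.275 FPKM in uninjured retina and 2.13 FPKM after injury. Its uninjured value per transcript is thus nearly the whole value per gene, and the level after injury was above the uninjured level at 12 hpi and at 4 dpi. With a pseudocount of 1 in place of 0.1, its log2 ratio was 1.30 at 12 hpi and 0.89 at 4 dpi, since the uninjured level is low. *slc6a14*, which encodes a broad sodium- and chloride-coupled carrier of neutral and basic amino acids, was listed at 0 in uninjured retina and at 2.07 FPKM at 4 dpi. None of these 3 genes was in the cyclopamine lists. The amino acid class holds 58 annotated genes, of which 4 were in the higher list at 4 dpi when SLC7A1, described apart, is counted. That list held 2.76% of all annotated genes.

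Carriers of nucleosides and nucleobases, and a gene of the monocarboxylate carrier family, followed in the higher list. *slc43a3b* (chromosome 14, 16819950 to 16856628, plus strand, GRCz10 per the processing notes), whose human counterpart carries purine nucleobases, measured 0.803 FPKM without injury and 13.1 FPKM at 4 dpi. Its log2 ratio of 3.87, or 14.6-fold, was the largest of the higher carriers at this time and ranked 134 of 780 higher genes above 0 in both libraries. With a pseudocount of 1 it was 2.97. *slc29a1a* (chromosome 13, 46542392 to 46592299, minus strand), which encodes an equilibrative nucleoside transporter, had 2.23 and 14.0 FPKM, a log2 ratio of 2.60. *slc16a9a*, of the monocarboxylate carrier family, had 3.81 and 13.0 FPKM, a log2 ratio of 1.75. All 3 genes were also in the higher list with cyclopamine. Of 39 annotated genes of the nucleoside and nucleotide sugar class, 1 was in the higher list at 4 dpi. This is near the 2.76% of all annotated genes in that list.

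Bicarbonate carriers of the Slc4 family went in both directions at 4 dpi. *slc4a7*, a sodium bicarbonate cotransporter, measured 2.41 FPKM without injury and 8.27 FPKM at 4 dpi, for a log2 ratio of 1.74. *slc4a2a*, a chloride/bicarbonate exchanger found in many tissues, had 0.399 and 2.32 FPKM, a log2 ratio of 2.28 that was 1.25 with a pseudocount of 1, and it was also in the higher list with cyclopamine. *slc4a4a*, the electrogenic sodium bicarbonate cotransporter that MG use in mammals, was instead in the lower list, with 35.8 and 14.0 FPKM. Its log2 ratio of -1.35 was the smallest in size of all 558 lower genes above 0 in both libraries.

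Calcium-extruding exchangers made up 3 of the 10 lower carriers at 4 dpi. They were 2 of 8 annotated Slc8 genes and 1 of 8 annotated Slc24 genes, beside 1.78% of all annotated genes in that list. This grouping is not 1 of the 9 substrate classes, and its count was not tested. *slc8a2b* (chromosome 15, 42811737 to 43025035, plus strand), a sodium/calcium exchanger of the type found in neurons, measured 22.2 FPKM without injury and 1.70 FPKM at 4 dpi, which was 12.4-fold lower. This log2 ratio of -3.63 ranked 4 of 558 lower genes. At 12 hpi its listed transcript had 22.2 and 5.92 FPKM, a log2 ratio of -1.89, and it was also in the lower list with cyclopamine. *slc24a4b* (chromosome 20, 50312330 to 50395203, plus strand), a sodium/calcium-potassium exchanger, had 22.4 and 3.65 FPKM, a log2 ratio of -2.58, and was in the lower list with cyclopamine as well. *slc8a4a*, a sodium/calcium exchanger known from fish, had 13.9 and 3.24 FPKM, a log2 ratio of -2.07. All 3 exchangers were at least 4-fold lower, beside 42.8% of the genes of that list, and with a pseudocount of 1 *slc8a4a* had a log2 ratio of -1.82 and no longer reached 4-fold.

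Among carriers of neuronal chloride and transmitters, *slc12a5a*, which encodes the potassium-chloride cotransporter of mature neurons, measured 47.9 FPKM without injury and 13.7 FPKM at 4 dpi, for a log2 ratio of -1.80. *slc17a7a*, which encodes a vesicular glutamate transporter, had 106.6 and 35.8 FPKM, a log2 ratio of -1.57. *slc12a5a* was in the lower list with cyclopamine and *slc17a7a* was in neither cyclopamine list. At 4 dpi *slc17a7a* was the only listed carrier of the neurotransmitter class, which holds 36 annotated genes. The lists of 4 dpi held 1.78% of all annotated genes as lower and 2.76% as higher. Of the photoreceptor markers, 0 of 4 rod and 0 of 6 cone genes were in any list, so the labelled tissue could not be checked against their levels.

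The other 4 lower carriers at 4 dpi carry different substrates. *slc25a33*, a mitochondrial carrier of pyrimidine nucleotides, had the highest level of any carrier listed at 4 dpi, with 142.8 FPKM in uninjured retina and 48.5 FPKM after injury. *slc6a8* (chromosome 8, 9013537 to 9080373, minus strand), the creatine transporter, had 78.8 and 17.1 FPKM, a log2 ratio of -2.20. *slc23a2*, a sodium-coupled vitamin C transporter, had 23.9 and 8.59 FPKM. *slc22a23*, an orphan of the organic ion carrier family, had 30.0 and 8.62 FPKM. Of these 4 genes, *slc6a8*, *slc23a2*, and *slc22a23* were also in the lower list with cyclopamine, and *slc25a33* was in neither.

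Markers of other cells stood higher in the 4 dpi library, and their part in these differences was not tested. Of all annotated genes, 2.76% were in the higher list at 4 dpi and 1.16% in that at 12 hpi. Of 5 microglia and macrophage markers, 3 were listed as higher, with a summed level of 33.6 FPKM without injury and 302.8 FPKM at 4 dpi. Of 4 MG markers, *gfap* and *apoeb*, which microglia express too, were listed as higher, with 243.8 and 2195 FPKM summed. Of 6 lens markers, 4 were listed as higher at 12 hpi and at 4 dpi, with 1.07 FPKM summed in uninjured retina, 233.5 FPKM at 12 hpi, and 121 FPKM at 4 dpi, and *cryaa*, *crygm3*, and *lim2.4* were at 0 in uninjured retina.

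At 12 hpi the higher list held carriers of lactate, mitochondrial glutamate, cystine, *myo*-inositol, and anions. The lower list held carriers of synaptic glutamate, neutral amino acids, calcium, fatty acids, and organic cations. The monocarboxylate carrier family was on both sides, as *slc16a5b* was in the lower list. The 5 higher carriers above 0 in both libraries had a median log2 ratio of 2.12, beside 2.63 for all genes of that list, and 3 of them reached 4-fold, beside 79.6%. The 7 lower carriers had a median of -2.04, beside -2.06, and 5 of them reached 4-fold, beside 55.0%. These values are of the listed transcript alone, and 0 of the 6 higher and 2 of the 7 lower carriers have 1 annotated transcript. The level of the whole gene at 12 hpi is therefore not known for the others.

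**Figure D3:**
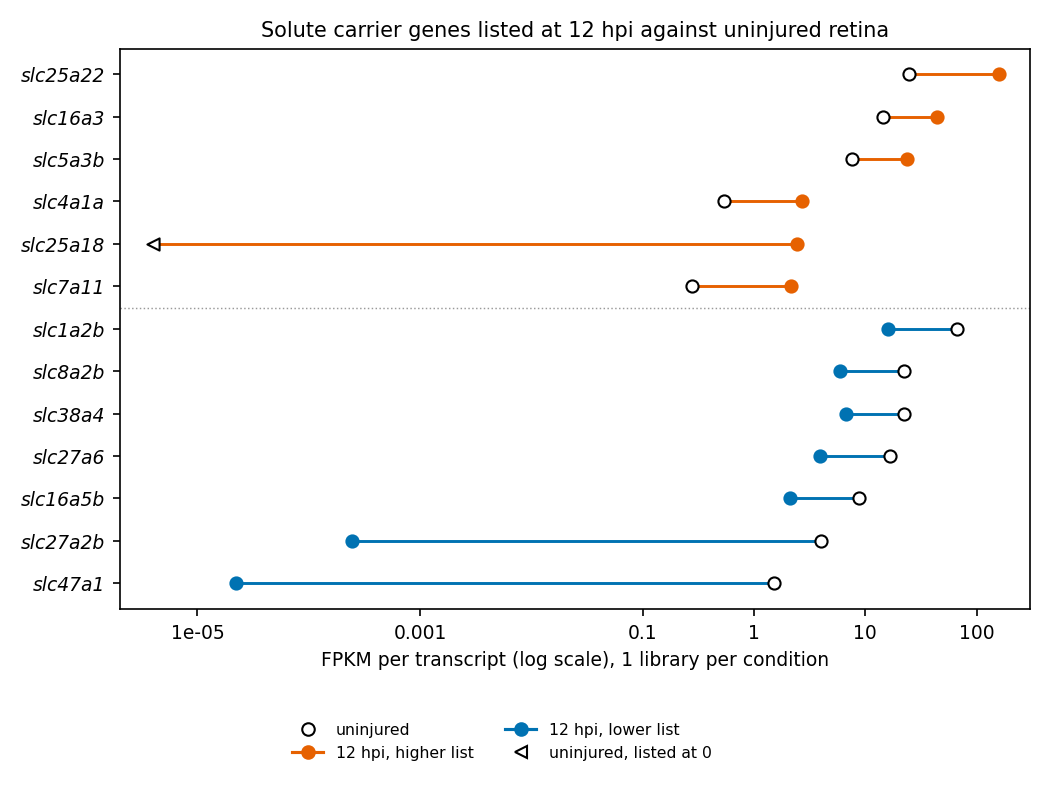
FPKM per transcript (log axis) of the 13 carriers listed at 12 hpi, with uninjured retina as open circles and 12 hpi as filled circles, 1 library each and therefore no error bars. *slc25a18*, listed at 0 in uninjured retina, is drawn as a triangle at the left edge, and *slc27a2b* and *slc47a1* have 12 hpi values far below 0.01 FPKM.

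Both mitochondrial glutamate carriers of the lists were higher at 12 hpi, as were 63.8% of all genes listed at that time. The mitochondrial carrier class holds 57 annotated genes, of which 2 were in that higher list, beside 1.16% of all annotated genes. *slc25a22* (chromosome 6, 49096982 to 49108393, plus strand) measured 24.7 FPKM without injury and 160.2 FPKM at 12 hpi, for a log2 ratio of 2.69 and the highest level of any listed carrier at this time. The table of gene names used here calls the same identifier *slc25a55a*, and the gene has 6 annotated transcripts. *slc25a18* was listed at 0 in uninjured retina and at 2.42 FPKM at 12 hpi, for 1 of 3 annotated transcripts. Neither gene was in the lists of 4 dpi or of cyclopamine.

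*slc16a3*, which encodes a lactate and proton cotransporter of glycolytic cells, measured 14.3 FPKM without injury and 43.9 FPKM at 12 hpi, for a log2 ratio of 1.62. *slc5a3b*, a sodium-coupled carrier of the osmolyte *myo*-inositol, had 7.66 and 23.7 FPKM, a log2 ratio of 1.62. It was the only one of the 45 carriers in the glucose and sugar class. That class holds 37 annotated genes, and SLC45A4, described apart with the symbols in capitals, is also one of them. *slc4a1a*, the band 3 anion exchanger of red blood cells, had 0.540 and 2.68 FPKM, a log2 ratio of 2.12 that was 1.26 with a pseudocount of 1. Of 7 red blood cell markers, 0 were in the 12 hpi lists, beside 1.16% of all annotated genes in the higher list and 0.712% in the lower list. A count of 0 in 7 genes is near these shares, and a part of red blood cells was not tested.

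In the lower list at 12 hpi, *slc1a2b* (chromosome 25, 36796113 to 36837199, plus strand) had the highest uninjured level. This glutamate uptake carrier, whose mammalian counterpart clears glutamate from the synapse, measured 66.0 FPKM without injury and 16.0 FPKM at 12 hpi, for a log2 ratio of -2.04. It was in no list of 4 dpi or of cyclopamine. *slc38a4*, a sodium-coupled carrier of neutral amino acids, had 22.2 and 6.74 FPKM, a log2 ratio of -1.71, and was also in the lower list with cyclopamine. *slc16a5b*, of the monocarboxylate carrier family, had 8.83 and 2.11 FPKM, a log2 ratio of -2.02.

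Both listed fatty acid transport proteins were lower at 12 hpi, as were 36.7% of all genes listed at that time. These are 2 of 6 annotated Slc27 genes, beside 0.712% of all annotated genes in the lower list. *slc27a6*, with 1 annotated transcript, had 16.8 and 3.94 FPKM, a log2 ratio of -2.07. The listed transcript of *slc27a2b* measured 4.01 FPKM without injury and 0.000244 FPKM at 12 hpi, and that of *slc47a1*, a carrier that exports organic cations in exchange for protons, had 1.50 and 2.23e-05 FPKM. Their log2 ratios of -5.36 and -4.00 are set by the pseudocount, and with a pseudocount of 1 they were -2.33 and -1.32. Values above 0 and under 0.01 FPKM occurred in 33 of 222 genes of the lower list and 25 of 386 genes of the higher list at 12 hpi, all of them genes with more than 1 annotated transcript. In the tables per gene at 4 dpi they occurred in 1 lower and 0 higher genes. Without these values, 3 lower carriers reached 4-fold at 12 hpi in place of 5.

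**Figure D4:**
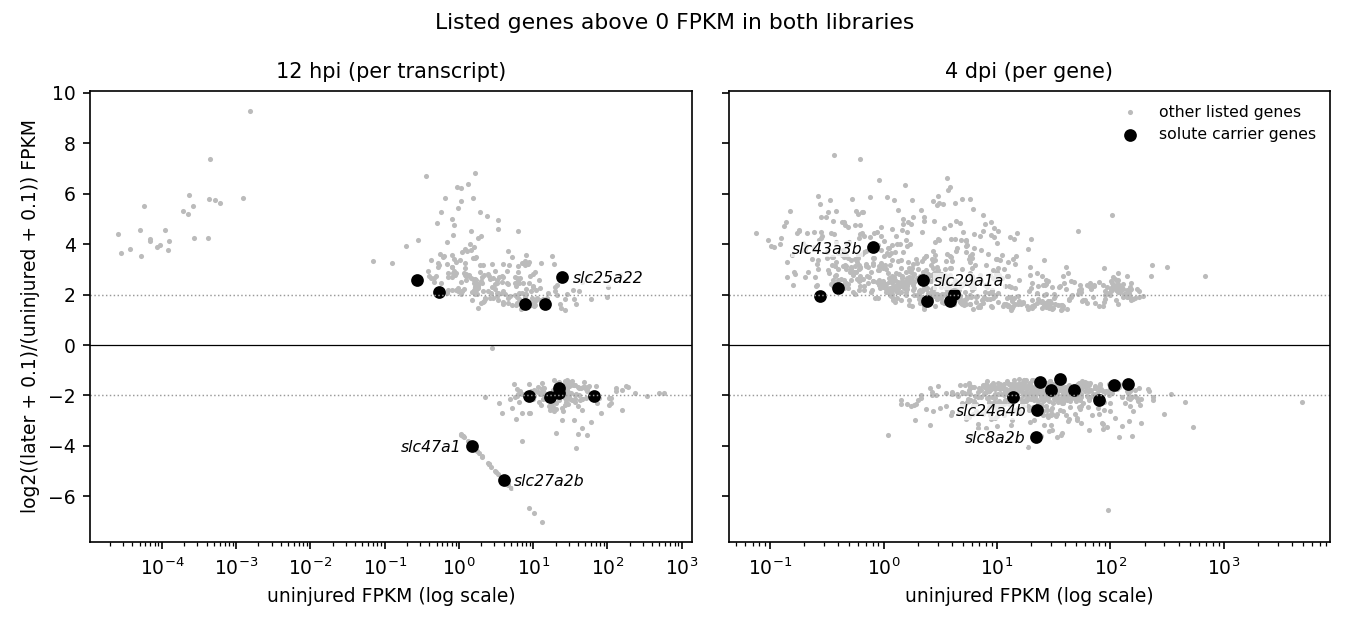
Log2 ratio (vertical axis) against uninjured FPKM (log horizontal axis) for listed genes above 0 FPKM in both libraries at 12 hpi and at 4 dpi, with carriers in black, other listed genes in grey, and dotted lines at a 4-fold difference. The carriers lie among the other listed genes, with medians of 2.12 and -2.04 at 12 hpi and 2.02 and -1.79 at 4 dpi, and *slc8a2b* at -3.63 is the lowest carrier at 4 dpi.

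With cyclopamine, 21 of the 27 listed carriers were in the lower list, beside 53.7% of all listed genes, and only the direction is known. Ion carriers made up 10 of the 21, and theirs is the largest class, with 81 of the 433 annotated carrier genes. The most complete family was that of the sodium/calcium-potassium exchangers, with *slc24a1*, known from rods, *slc24a2*, known from cones, *slc24a4a*, and *slc24a4b* in the lower list. Also lower was a gene with the clone symbol CABZ01081780.1, which is named SLC24A2 in the table of gene names. Thus 5 of 8 annotated genes of this family were in the lower list with cyclopamine, beside 2.26% of all annotated genes. The lower lists of 4 dpi and 12 hpi held 1 of 8 and 0 of 8, beside 1.78% and 0.712% of all annotated genes. At these last shares, few or none of 8 genes would be listed. The family is named here because of its count in these lists. Levels with and without cyclopamine could not be compared, and the difference between lists in this family was not tested.

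Chloride and bicarbonate carriers of neurons and epithelia were also in the lower list with cyclopamine. They were the potassium-chloride cotransporters *slc12a5a* and *slc12a7b*, *slc12a10.2* of the sodium-chloride cotransporter family, and *slc4a10b*, a sodium-driven bicarbonate carrier of neurons. These include 3 of 14 annotated Slc12 genes counted here, beside 2.26% of all annotated genes in that list. *slc13a2*, a sodium-coupled carrier of citric acid cycle intermediates, and *slc8a2b* were the other ion carriers of the list.

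Mitochondrial carriers in the lower list with cyclopamine were *slc25a23a*, *slc25a24*, *slc25a25b*, and *slc25a47a*, of 57 annotated genes of this class. *slc25a23a*, *slc25a24*, and *slc25a25b* are of the type that exchanges ATP-magnesium for phosphate and is regulated by calcium. That lower list held 2.26% of all annotated genes, and the higher list with cyclopamine held 2.04%. No mitochondrial carrier was in the higher list with cyclopamine, which is near that share. None of these 4 genes was listed at 12 hpi or 4 dpi. The heme transporter gene *slc48a1a* was the only listed gene of the 36 annotated metal and heme carriers in any comparison. This count is near the share of all annotated genes in the lower list with cyclopamine. The remaining lower genes were *slc38a4*, *slc6a8*, *slc22a23*, *slc23a2*, and the orphans *slc22a18* and *slc10a3*.

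The higher list with cyclopamine held *slc4a2a*, *slc16a9a*, *slc29a1a*, and *slc43a3b*, given above with their 4 dpi values, and *slc35b3* and *slc35f6*, of the family that carries nucleotide sugars and related substrates into the secretory pathway. *slc35b3* encodes a transporter of the sulfate donor PAPS. All 3 listed genes of the nucleoside and nucleotide sugar class, which holds 39 annotated genes, were in the higher list. No amino acid carrier, of 58 annotated genes of that class, was in the higher list with cyclopamine. This is near the 2.04% of all annotated genes in that list. The higher list with cyclopamine also held 3 of 5 microglia and macrophage, 2 of 4 MG, 4 of 6 lens, and 1 of 8 pigment cell markers (*pmelb*). The lower list held 1 of 7 red blood cell markers (*alas2*). Of all annotated genes, 2.04% were in this higher list and 2.26% in the lower list. The part of these markers in the carrier lists was not tested.

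A further 3 carriers have symbols in capitals in the tables, named after human genes, and fall outside the symbol rule. They are given here as chosen after their values were seen. SLC45A4 (chromosome 19, 947169 to 1000154, minus strand), of a family of proton-coupled sugar carriers, measured 118.2 FPKM without injury and 9.47 FPKM at 4 dpi, or 12.4-fold lower, and was in the lower list with cyclopamine. SLC7A1, a carrier of basic amino acids, had 0.604 and 3.14 FPKM at 4 dpi, for a log2 ratio of 2.20. SLC22A14 measured 30.2 FPKM without injury and 7.11 FPKM at 12 hpi for its listed transcript. The table of gene names calls the same identifier si:dkey-190l8.2, so it is not among the 433 annotated carrier genes. With these 3 genes included, the higher lists held 6, 9, and 6 carriers at 12 hpi, at 4 dpi, and under cyclopamine. The lower lists then held 8, 11, and 22.

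Genes that work with these carriers were counted from lists of partners. Of 22 genes of the amino acid stress response, which includes the transcription factor that turns on *slc7a11* and *slc3a2* in mammals, the higher lists held 4 at 12 hpi, 6 at 4 dpi, and 4 under cyclopamine, and the lower lists held none. Of all annotated genes, the higher lists held 1.16%, 2.76%, and 2.04% in that order, and the lower lists 0.712%, 1.78%, and 2.26%. *atf4a* and *atf4b*, which encode that factor, were in no list. The 4 genes at 12 hpi were *atf3*, *atf5a*, *cebpb*, and *trib3*, and *atf3* had 0.952 FPKM without injury and 81.8 FPKM at 12 hpi. A link between the genes of this list and the listed carriers was not tested. *atf5a* had 8.99 FPKM in uninjured retina, 60.0 FPKM at 12 hpi, and 25.9 FPKM at 4 dpi. *psat1*, an enzyme of serine synthesis, measured 3.20 FPKM without injury and 22.9 FPKM at 4 dpi. Of 16 genes of glutamate and glutamine handling, the enzyme gene *got1* was in the lower list with cyclopamine and no other was in any list. At the shares of all annotated genes given above, few or none of 16 genes would be listed.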

How the data were processed

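RNA-seq of whole retina was analysed from 4 libraries, 1 per condition. The submitters' processing notes name Bowtie2 2.2.2, TopHat2 2.1.0, Cufflinks 2.2.1, and GRCz10. FPKM values were deposited per direction, with transcripts as rows at 12 hpi and genes as rows at 4 dpi, and with the uninjured value in the same row. Other columns hold the authors' fold changes and test results and were not used. The deposited cyclopamine lists give identifiers and symbols in another format (no values), and whether their rows stand for genes or transcripts is not given in the sources used here. Strandedness and treatment of reads shared between paralogs are not given either. Coordinates are as deposited, and whether starts count from 0 or 1 is not stated.

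Genes were counted by Ensembl identifier, taking at 12 hpi the listed transcript of highest mean level, and ratios were taken after adding 0.1 FPKM. A gene at exactly 0 got no ratio. Substrate class followed family and gene names, in 9 classes. The reference of 29201 gene names holds all 45 identifiers. Every counted carrier with values could be named, and some carrier genes are not reported here and were left out of the carrier counts. The members and lists were chosen with earlier results of these data known. Calculations used Python 3.11.15, pandas 2.3.3, and numpy 2.4.6 and were tested on simulated data.

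No test across samples was possible. The alternatives were a pseudocount of 1 or none, a limit of 8-fold, a minimum of 5 FPKM, counting symbols or rows, and summing transcripts. Later additions were symbols in capitals, genes with 1 annotated transcript, and omission of values under 0.01 FPKM. Changes above 1.5-fold between settings are given as moved.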

Additional observations from a re-analysis of the deposited data

How the results depend on the processing

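After adding 1 FPKM in place of 0.1, the carriers reaching 4-fold were 1 higher and 1 lower at 12 hpi (3 and 5 before) and 2 higher and 3 lower at 4 dpi (4 of each before), and the median log2 ratio of the higher carriers at 12 hpi was 1.51. An 8-fold limit left 0 higher carriers at 12 hpi and 1 at 4 dpi, and 2 lower carriers at 12 hpi and 1 at 4 dpi. A minimum of 5 FPKM left 3 higher carriers at 12 hpi and 5 at 4 dpi. Genes with 1 annotated transcript, chosen after the data were seen, numbered 0 in the higher list of 12 hpi, 2 in its lower list, and 3 and 5 in those of 4 dpi. Omission of values under 0.01 FPKM, also chosen after the data were seen, left 3 lower carriers at 4-fold at 12 hpi. Of 70 recomputed ratios of single carriers 9 moved, 7 after adding 1 FPKM and 2 after adding nothing, and none reversed, which a constant added to both libraries cannot cause. Without a pseudocount *slc47a1* and *slc27a2b* had -16.04 and -14.01. Including symbols in capitals kept every count of listed carriers within 1.5-fold. Each listed carrier had 1 row per list and none was in both cyclopamine lists. Counting symbols or every row, and leaving out genes in both cyclopamine lists, therefore could not change a count. For the same reason the 12 ratios of summed transcripts among the 70 could not move. No paired analysis was possible because there is only 1 library of each kind. Counting error could not be given, since the number of reads behind an FPKM value is unknown.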

Other observations

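Other transporter families and metabolic genes were listed beside the carriers. Of the ATP-binding cassette transporters, *abcc1* and *abcc3* were lower at 12 hpi, with 13.4 and 12.9 FPKM without injury and 4.02 and 3.42 FPKM after injury, and both were in the lower list with cyclopamine. *abcc4* of the same subfamily was higher at 12 hpi, with 10.4 and 31.1 FPKM. *abcc13* was higher at 4 dpi, with 6.77 and 19.4 FPKM. *abca1b*, which exports cholesterol, measured 0.697 FPKM without injury and 7.21 FPKM at 4 dpi, and *abcc8b*, of the sulfonylurea receptor type, had 164.3 and 40.4 FPKM. With cyclopamine, *abca1b*, *abcc13*, and *abcc8* were in the higher list, and *abcc8b* was in the lower list. Of the organic anion transporters, *slco5a2* measured 24.3 FPKM without injury and 1.91 FPKM at 4 dpi. At 12 hpi its listed transcript had 9.3 FPKM in uninjured retina and 2.57 FPKM after injury. *slco3a1* was in the lower list with cyclopamine.

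Of 18 genes of the sodium pump list, *atp1b4* was the only listed gene, with 27.0 FPKM in uninjured retina, 5.08 FPKM at 12 hpi, and 9.43 FPKM at 4 dpi. Of 44 genes of glycolysis and lactate metabolism, *hk2*, a hexokinase, measured 0.552 FPKM without injury and 7.87 FPKM at 12 hpi, and *pfkfb4b*, which sets the level of an activator of glycolysis, had 145 and 17.8 FPKM at 4 dpi. With cyclopamine *hk2* was in the higher list, and *aldoaa*, *eno1a*, *eno1b*, *hif1ab*, and *pfkfb4b* were in the lower list. Of all annotated genes, the higher lists held 1.16% at 12 hpi, 2.76% at 4 dpi, and 2.04% with cyclopamine. The lower lists held 0.712%, 1.78%, and 2.26% in that order. The counts of this paragraph were not tested against these shares. Of 24 iron handling genes, the metalloreductase gene *steap4* had 1.59 FPKM in uninjured retina, 9.20 FPKM at 12 hpi, and 8.83 FPKM at 4 dpi, and *hephl1a*, of the ferroxidase family, had 5.67 and 22.7 FPKM at 12 hpi.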
